A study of Mus musculus with 4 samples.

Results

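RNAs were described here by how their proximity contacts divide between contacts inside the same RNA and contacts with other RNAs. The deposited pair table lists 56636 pairs of RNAs among 13318 RNAs, of which 4836 pairs join an RNA to itself and 51800 join 2 different RNAs. An RNA was kept when it had a row with itself and at least 3 rows with other RNAs, which left 2744 RNAs. Members were thus chosen by whether such rows were listed, and counts were not compared between the groups for this. A listed pair had at least 1 count in every library, so the number of rows of an RNA depends on its counts and on depth. For each RNA and library the within-RNA share was computed, which is the count of its row with itself as a percentage of all its listed counts. A total of 1003 RNAs were listed only with themselves, 8482 only with other RNAs, and 1089 with themselves and 1 or 2 others. Among the RNAs left out because they have no row with themselves were Malat1, Gm42418, Gm26917, Gm16751 and Rps3. Because each pair had at least 1 count in all libraries, RNAs or pairs seen in only some libraries cannot be described.

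The contacts come from RIC-seq, in which RNA is fixed in place with formaldehyde inside cells and fragments that lie close together, held by the same proteins, are ligated into chimeric molecules and sequenced. A chimera with both ends in the same RNA reports folding or close packing of that RNA, and a chimera with ends in 2 RNAs reports that they lay close to each other. Spermatogonial stem cells are the testis cells that either renew themselves or enter differentiation and then meiosis, and long noncoding RNAs such as Neat1 and Malat1 are known to gather many other nuclear RNAs around nuclear bodies. RIC-seq counts rise with the amount of an RNA as well as with its contacts, so the share within each RNA was read beside both kinds of counts.

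All 4 libraries are from mouse spermatogonial stem cells. The 2 control libraries are labelled wild type. The 2 libraries of the other group carry the label of differentiation where the controls have their genotype; the inducer, its dose and its duration, the age and strain of the mice and the source of the cultures are not given in the sources used here. Nothing in the labels says that replicates came from separate cultures or animals, so p-values measure no more than how far these libraries scatter, which may be technical. Fewer cells of a type and less RNA per cell cannot be told apart in these bulk libraries. The totals were 1209031 and 1400011 counts in control 1 and control 2, and 793129 and 1155923 in differentiation 1 and differentiation 2. Of 10 markers of undifferentiated spermatogonia, 6 were listed, and Id4, Lin28a, Nanos2 and Bcl6b were not. Their summed level was 1086 and 1272 CPM (counts scaled to the library's TMM-adjusted total) in the controls against 351 and 324 in differentiation. Most of the control sum came from Shisa6, so it says little about the other markers. Of 5 general germ cell markers, 4 were listed (Dnd1 was not), at 66.0 and 62.6 CPM in the controls against 87.9 and 126 in differentiation. The 5 markers of differentiating spermatogonia and meiosis went from 171 and 163 CPM to 580 and 669. Markers of Sertoli cells (6 of 8 listed, Amh and Rhox5 not) went from 1602 and 1855 to 1036 and 1026 CPM, and all 8 markers of fibroblasts and feeder cells were listed, at 2373 and 2226 against 1569 and 1789.

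Most of the 2744 RNAs had more contacts inside themselves than with others, and the share was higher in both differentiation libraries. The median share was 65.9% in control 1, 65.1% in control 2, 69.9% in differentiation 1 and 71.7% in differentiation 2. The middle 50% of RNAs ran from 45.2% to 78.5% in control 1 and from 48.9% to 83.9% in differentiation 2. Shares over 50% were reached by 1926 and 1932 RNAs in the controls and by 2021 and 2032 in differentiation. At the ends of the range, 51 RNAs stayed under 10% in all 4 libraries and 53 stayed over 90%. The order of RNAs was much the same in every library: Spearman's rho across the 2744 RNAs was 0.92 between the controls, 0.90 between the differentiation libraries and 0.89 to 0.90 across groups, as a description, since the RNAs share libraries and depth.

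**Figure D1:**
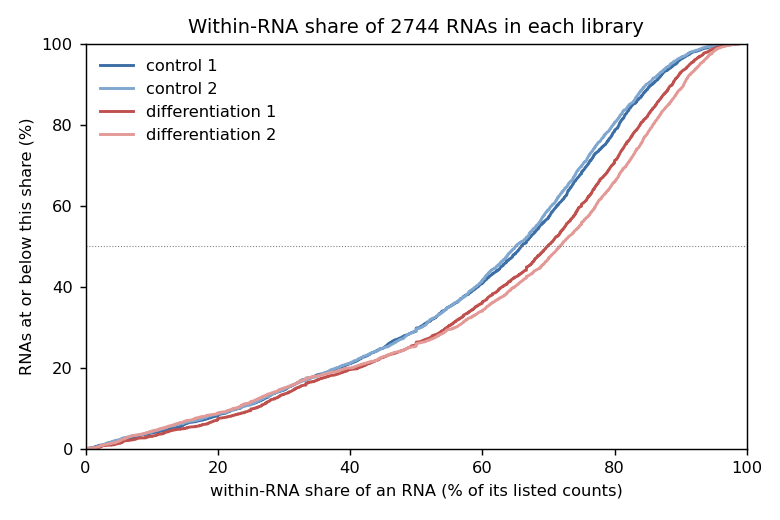
Cumulative distribution of the within-RNA share (x axis, % of the listed counts of an RNA) over 2744 RNAs (y axis, % of RNAs at or below that share), with 1 line for each of the 4 libraries. The curves of the differentiation libraries lie to the right of both controls above a share of about 50%, with medians of 69.9% and 71.7% against 65.9% and 65.1%.

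The error of a single RNA's share was as large as the typical difference between groups. Members had a median of 102 to 175 counts in a library, and the 95% Wilson interval of a share had a median half-width of 6.10 to 7.89 percentage points. Such intervals cover counting error only, since sequenced reads without molecular identifiers are not independent molecules. The median SD between the 2 replicates was 2.90 percentage points in the controls and 3.53 in differentiation, while the median difference in share between the groups was 3.73 percentage points. The libraries also differed in depth: 26.5% and 20.2% of the between rows of these RNAs stood at the minimum of 1 count in differentiation, against 14.4% and 13.0% in the controls. The part of depth in the shift was not tested.

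The change in share was tested as the odds of a within count against a between count, given as the log2 of the odds in differentiation over the odds in control, so that 1 means 2-fold odds. With edgeR's quasi-likelihood test and Benjamini-Hochberg adjustment over all 3554 RNAs that had both kinds of contact and at least 10 counts of each, 0 RNAs passed an adjusted p of 0.05 in either direction (background 0%), and the smallest adjusted p was 0.165, shared by 83 RNAs. At an unadjusted p under 0.05, 512 of the 2736 members tested had a higher share and 53 a lower one, where the background was 16.2% higher and 1.83% lower over all RNAs tested. DESeq2, run on the same counts as an alternative, called 21 higher and 2 lower, all of them members (background 0.591% and 0.0563% of the 3554 RNAs). It gave no adjusted p for 2549 of the 3554 RNAs, so these percentages are lower than over the RNAs it could call. An exact permutation test of 2 against 2 libraries cannot go below p = 0.333.

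The direction was shared by most RNAs although no single RNA passed in edgeR. The median log2 odds was 0.36, an odds ratio of 1.28, and 2076 of 2736 RNAs (75.9%) were above 0. Both differentiation libraries lay above both controls for 1155 RNAs (42.1%, background 37.4%) and below both for 246 (8.97%, background 9.57%); the groups overlapped for the other 1343. RNAs with a row of their own and only 1 or 2 partners, which just miss the rule, had 277 above (25.4%) and 121 below (11.1%). Among members the rate also differed with summed counts. Of the 689 members with fewest counts, 187 lay above and 74 below, and of the 686 with most counts, 380 lay above and 62 below. The part of counts in these differences was not tested. Near the limit of the rule, the 501 RNAs with 2 partner rows had median shares of 78.3%, 78.9%, 81.0% and 82.1% in control 1, control 2, differentiation 1 and differentiation 2, and the 526 with 3 rows had 72.8%, 72.6%, 77.5% and 77.9%. Whether a common shift is kept depends on how the 2 kinds of contact are scaled. In an alternative, within and between columns were each scaled by the trimmed mean of M values (TMM), which takes out a common shift of 0.39 in log2 odds. The median then became -0.04 and 1273 RNAs were above 0. A median near 0 follows from this scaling and does not bear on the sign of the shift.

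The between counts were next divided by partner. A few RNAs contact nearly all members: Gm42418 had rows with 2618 of the 2744, Slc9a9 with 2599 and Gm26917 with 2550. Gm42418 and Gm26917 are annotated loci known to collect ribosomal RNA reads, and Slc9a9 and Shroom3 are protein-coding genes for a sodium-proton exchanger and an actin-binding protein. Together with Malat1 and Neat1, these 6 partners held 41.9% of all between counts of the members and 26.4% of their between rows, and 2730 members had at least 1 pair with them.

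Contacts with these partners were lower in both differentiation libraries. Gm26917 had 51032 ± 5327 CPM with members in the controls and 33427 ± 1734 in differentiation (SD, n = 2). Gm42418 had 51068 ± 6655 and 39181 ± 2245, and Slc9a9 had 32562 ± 6061 and 24553 ± 1664. The 2 nuclear RNAs differed by more: Malat1 had 14278 ± 1963 and 6566 ± 775 CPM, and Neat1 had 10299 ± 1029 and 2207 ± 497, 4.67-fold lower. Not all broad partners did so, since Cdk8 had 3633 ± 362 and 4106 ± 365 and Gm23935 had 5541 ± 559 and 5936 ± 97.3 CPM.

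Contacts inside the RNA took a larger part of these RNAs' own counts in differentiation, but not of the whole library. Of all counts of a library, within counts of members made up 44.8% and 45.7% in the controls against 42.0% and 47.6% in differentiation, which overlap. Over the 2741 members other than Slc9a9, Shroom3 and Neat1, within-RNA contacts made up 61.5% and 60.4% of counts in the controls and 64.8% and 68.3% in differentiation. Their within level was 425280 ± 4963 CPM in the controls and 427160 ± 34773 CPM in differentiation (SD, n = 2). Pairs with Gm42418 or Gm26917 made up 13.3% and 15.1%, then 11.6% and 10.8%. Pairs with Neat1 or Malat1 made up 2.81% and 3.33%, then 1.38% and 1.03%. Pairs with any other RNA elsewhere in the genome overlapped between the groups, at 13.1% and 13.2% against 14.7% and 12.6%. Pairs between overlapping genes were at 1.68% and 1.93% against 1.42% and 1.28%, and pairs of genes within 100 kb of each other overlapped, at 1.24% and 1.26% against 1.48% and 1.24%.

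**Figure D2:**
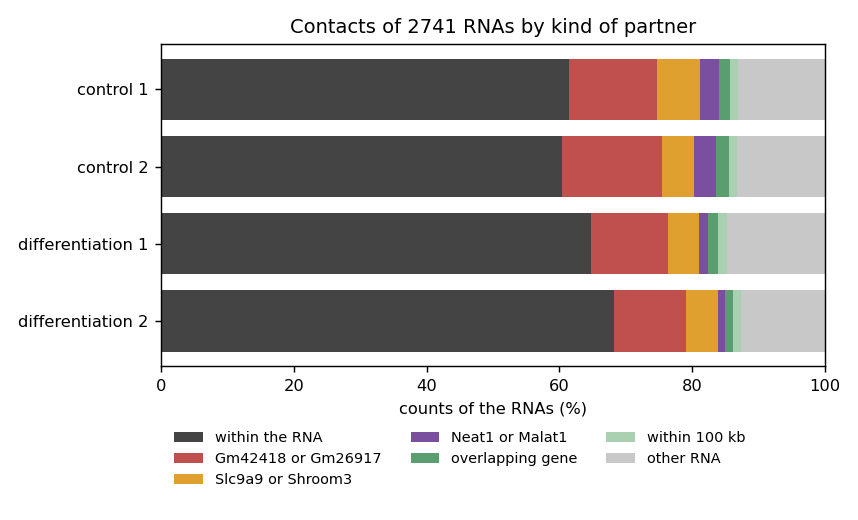
Stacked bars of all counts of 2741 RNAs (x axis, % of their counts) in each of the 4 libraries (y axis), split by kind of contact. The within-RNA part grows from 61.5% and 60.4% in the controls to 64.8% and 68.3% in differentiation, the parts of Gm42418 or Gm26917 and of Neat1 or Malat1 shrink, and the part of other RNAs does not separate the groups.

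The shift was smaller when pairs with these 6 partners were left out. The 2162 members that kept between rows then had median shares of 89.3%, 89.1%, 88.8% and 90.7% in control 1, control 2, differentiation 1 and differentiation 2. Both differentiation libraries lay above both controls for 474 of them (21.9%) and below for 443 (20.5%). The median log2 odds over the 1902 members that could be tested was 0.05, where the same RNAs had 0.31 with all pairs counted. edgeR's unadjusted p was under 0.05 for 120 RNAs with a higher and 121 with a lower share. Leaving out only Gm42418 and Gm26917 gave 953 above, 322 below and a median log2 odds of 0.27; only Neat1 and Malat1, 1088, 270 and 0.32; only Slc9a9 and Shroom3, 1119, 239 and 0.38. The balance was less even without pairs of few counts: with the 6 partners left out and only pairs of at least 20 counts kept, 1180 members remained, 351 lay above (29.7%) and 200 below (16.9%), and the median log2 odds was 0.12. Leaving out these partners also leaves fewer counts in each share. These counts cover members only, and the shares over all RNAs with both kinds of contact are not given for these settings. The balance therefore cannot be called particular to the members.

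**Figure D3:**
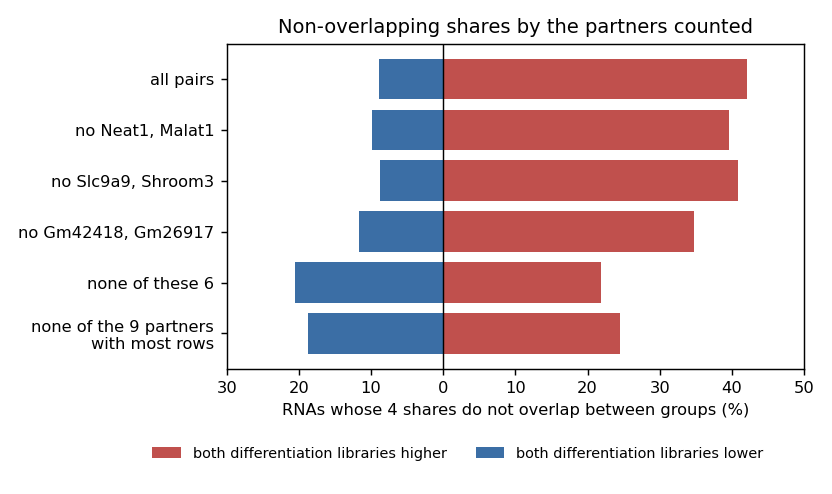
Share of RNAs (x axis, %) whose 4 library shares do not overlap between groups, to the right where both differentiation libraries are higher and to the left where both are lower, for each choice of partners counted (y axis). The right bar falls from 42.1% with all pairs to 21.9% without the 6 partners, where the left bar is at 20.5%.

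The 2 kinds of counts were then tested apart, in a single edgeR fit over 14172 features, each a within row or the between total of an RNA. Within counts rose in 278 of 2693 members tested (10.3%, background 10.4%) and fell in 256 (9.51%, background 6.65%), with a median log2 change of 0.11 beside 0.22 over all within rows. Between totals rose in 43 of 2742 members (1.57%, background 3.33%) and fell in 357 (13.0%, background 6.05%), with a median of -0.29 beside -0.08 over all between totals. The counts of calls depended on single libraries, although within calls changed least without differentiation 2. Within calls were 131 higher and 164 lower without control 1, 91 and 113 without control 2, and 579 and 366 without differentiation 1. Between calls were 26 higher and 167 lower without control 1, 12 and 85 without control 2, 92 and 469 without differentiation 1, and 65 and 340 without differentiation 2.

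The changes of the 2 kinds of counts were related across RNAs, but more RNAs had a call in 1 kind than in both. Across 2691 RNAs the log2 changes of within and between counts had a Spearman's rho of 0.58, given as a description, since both come from the same libraries. Both rose in 27 RNAs and both fell in 181, and in none were they called in opposite directions (edgeR, adjusted p under 0.05). Over all 3833 RNAs with both kinds of contact, members included, both rose in 35 and both fell in 185. In the 181 the median share was 66.5% in control and 64.9% in differentiation. In 251 RNAs the within count rose and the between total was not called, and their median share went from 74.5% to 82.9%. In 176 the between total fell and the within count was not called, and it went from 59.2% to 68.9%. In 75 the within count fell alone, and it went from 72.3% to 64.6%. Over all 3833 the last 3 counts were 349, 182 and 97. These groups were cut from the same counts as the shares, so the shares only describe them.

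**Figure D4:**
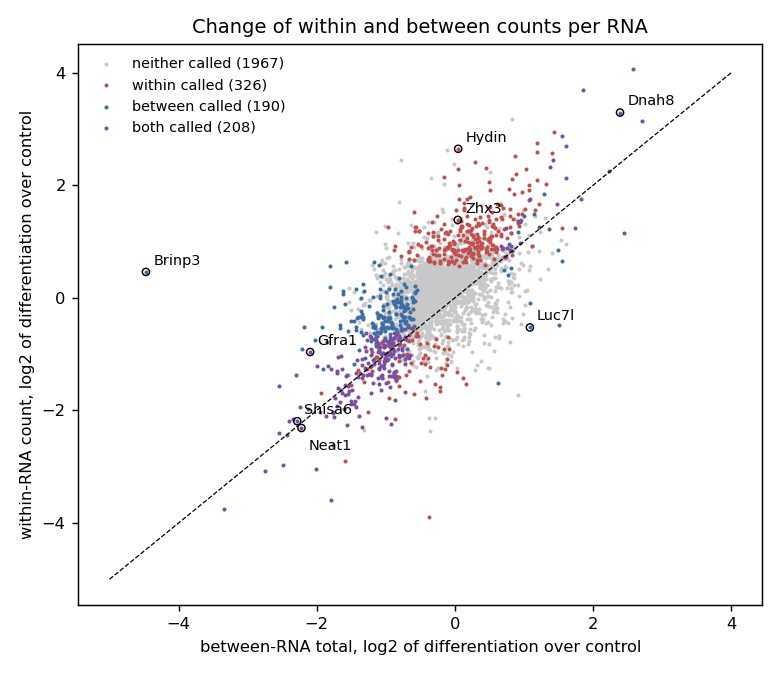
Log2 change (differentiation over control) of the within count (y axis) against that of the between total (x axis), 1 point per RNA, coloured by which of them edgeR called. The points spread along the dashed line of equal change, Neat1 and Shisa6 sit near it with changes of -2.31 and -2.22 and of -2.19 and -2.28 (within, between), Zhx3 and Hydin lie above it and Luc7l below.

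The RNAs with most counts covered the whole range of shares. Slc9a9 had 7833 partner rows and a share of 0.21%, 0.14%, 0.32% and 0.14% in control 1, control 2, differentiation 1 and differentiation 2. Shroom3 stood at 1.90%, 2.75%, 2.20% and 1.78%. Cmss1, a gene for a small ribosomal subunit protein homolog, stood at 4.55%, 4.12%, 4.49% and 3.53%. The groups overlapped for all 3 of these broad partners. Sparc, a secreted matrix protein, lay at the other end with 93.2%, 92.8%, 95.02% and 95.5%, higher in both differentiation libraries with a log2 odds of 0.59 ± 0.14 (SE) and an edgeR adjusted p of 0.170.

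Neat1, which forms the scaffold of paraspeckles, lost counts of both kinds at a similar share. Its share was 61.1%, 60.9%, 60.6% and 58.0%, slightly lower in both differentiation libraries, a log2 odds of -0.10 ± 0.13 (SE) with an edgeR adjusted p of 0.718. Its within count fell from 39550 ± 3820 to 7962 ± 2079 CPM (SD, n = 2; log2 change -2.31, edgeR adjusted p 7.25e-05). Its between total fell from 25291 ± 2588 to 5424 ± 1017 (log2 change -2.22, edgeR adjusted p 5.87e-05). Pakap and Akap2 behaved alike, with 25.56%, 26%, 25.96% and 25.91% for Pakap and 25.1%, 25.4%, 24.8% and 24.9% for Akap2, while both of their counts fell by about 1 on the log2 scale. Both names lead to the same annotated gene, so their counts are not separate observations.

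The highest and lowest shares among RNAs with at least 100 counts differed little between groups. Aard, listed among Sertoli cell markers, had 97.1%, 96.8%, 97.6% and 98.9%, and Psma6, a proteasome subunit, had 98.2%, 96.1%, 98.2% and 97.2%. Gsta4, a glutathione transferase, had 96.7%, 97.3%, 98.0% and 98.0%, and Tfg, a protein of the secretory pathway, had 97.4%, 97.7%, 97.2% and 98.6%. Tex14, needed for the bridges between germ cells, had 0.06%, 0.14%, 0.27% and 0.14%, from 4, 11, 13 and 9 within counts. Loxl2, a lysyl oxidase, had 1.75%, 1.03%, 2.21% and 1.29%. Mllt10 had 0.56%, 0.74%, 4.35% and 0.50% from 1, 2, 6 and 1 within counts, too few to order the libraries. The groups overlapped for Psma6, Tfg, Loxl2 and Mllt10.

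Zhx3, a homeobox zinc finger repressor that the study's title pairs with the long noncoding RNA Gm16751, had 9 partner rows. Its share was 43.8% and 41.1% in the controls and 66.5% and 64.0% in differentiation, without overlap. The log2 odds was 1.34 ± 0.24 (SE), with an edgeR p of 0.00127 and an adjusted p of 0.165, and DESeq2 gave no adjusted p. Its within count rose from 59.9 ± 7.55 to 155.8 ± 2.15 CPM (SD, n = 2; log2 change 1.38, edgeR adjusted p 0.00205). Its between total was 81.0 ± 4.05 and 83.0 ± 5.27 CPM (log2 change 0.04, edgeR adjusted p 0.932).

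The pairs of Zhx3 with Gm16751 and with Chd6 differed in opposite directions, from few counts each. Counts are raw here, and both differentiation libraries had lower totals than both controls. The pairs with Gm42418 and Slc9a9 therefore show no clear change. In control 1, control 2, differentiation 1 and differentiation 2, the pair with Gm16751 had 14, 16, 27 and 35 counts, the pair with Gm42418 had 20, 17, 8 and 19, and the pair with Slc9a9 had 15, 20, 12 and 14. The pair with Chd6, a chromatin remodeller gene 74.0 kb away, had 16, 18, 1 and 1 counts. Without pairs within 100 kb the log2 odds of Zhx3 was 1.10, and without the 6 broad partners it was 0.94. Pairs were not tested singly here. Zhx3 lies on chromosome 2 from 160770447 to 160872990 (GRCm38.p6).

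Members called by DESeq2, together with Hydin, Ctnna2 and Nav2, were chosen after their values were seen. The following are examples and stand for no gene group. Itgb1, an integrin subunit, had 76.6% and 76.3% in the controls and 85.8% and 89.5% in differentiation. Capzb, an actin capping protein, had 74.3% and 76.8%, then 86.5% and 88.1%. Dst, a cytoskeletal linker, had 10.7% and 8.17%, then 20.7% and 21.1%, and Utrn, the gene of the dystrophin relative utrophin, had 12.9% and 9.94%, then 20.1% and 25.4%. The groups did not overlap for these 4. For Capzb, Dst and Utrn the between total fell by 0.81, 0.94 and 0.64 on the log2 scale (edgeR), and for Itgb1 the within count rose by 0.85. The DESeq2 adjusted p was 0.0186 for Itgb1, 0.00492 for Capzb, 0.00169 for Dst and 0.0459 for Utrn.

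The share was also higher for App and Col4a2. App, the amyloid precursor protein, had 91.8% and 90.9% in the controls and 95.3% and 95.9% in differentiation (log2 odds 1.06 ± 0.15 SE, DESeq2 adjusted p 0.00492, edgeR 0.165). Col4a2, a basement membrane collagen, had 79.7% and 78.2%, then 85.9% and 87.5%.

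Hnrnpm, Ehmt2 and Dpf2 were called higher as well, with all pairs counted. Without pairs of the 6 broad partners the log2 odds of Hnrnpm turned negative, and those of Ehmt2 and Dpf2 were much smaller. In that setting 6 of 60 named RNAs had the opposite sign. Those of App, Col4a2, Dst and Itgb1 stayed positive and kept most of their size. Hnrnpm, a splicing regulator, had 80.7% and 82.7% in the controls and 92.1% and 91.8% in differentiation. Ehmt2, a histone H3 methyltransferase, had 81.0% and 84.3%, then 92.8% and 91.2%. Dpf2, a chromatin remodelling subunit, had 79.7% and 76.0%, then 90.2% and 94.1%. Of the between counts of Dpf2, 64.1% were with Malat1 and Neat1, which lie 93.8 kb and 51.04 kb from it. The pair with Malat1 had 25, 32, 7 and 9 counts in control 1, control 2, differentiation 1 and differentiation 2, and the pair with Neat1 had 24, 31, 5 and 6.

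Other calls rested on few within counts. Brinp3 had 1.62% and 0.995% in the controls and 41.5% and 9.09% in differentiation, with only 12, 8, 17 and 3 within counts, and 95% Wilson intervals of 27.8% to 56.6% in differentiation 1 and 3.14% to 23.6% in differentiation 2. Its pair with Neat1 held 88.1% of its between counts and had 638, 710, 18 and 24. Its log2 odds of 4.79 was 2.93 without differentiation 1 and 3.78 without pairs with Neat1 and Malat1. The mitochondrial 16S ribosomal RNA, mt-Rnr2, had 0.52% and 1.20%, then 5.04% and 4.86%, from 2, 7, 12 and 19 within counts.

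Luc7l, a splicing factor of the U1 snRNP, had the smallest p of all RNAs and a lower share. It had 31.6% and 32.3% in the controls and 12.5% and 13.8% in differentiation (log2 odds -1.62 ± 0.18 SE, edgeR p 8.70e-05, adjusted p 0.165, DESeq2 adjusted p 0.00103). Its between total rose by 1.08 on the log2 scale (edgeR adjusted p 0.00311), and 87.3% of it was the pair with Pabpc1, the poly(A) binding protein gene, at 232, 269, 343 and 640 counts in control 1, control 2, differentiation 1 and differentiation 2. Luc7l lies on chromosome 17 from 26252899 to 26285510 (GRCm38.p6).

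The other lower shares were of 3 kinds. Zfp949, a zinc finger gene, had 3.97% and 2.67% in the controls and 1.20% and 0.40% in differentiation (DESeq2 adjusted p 0.0116); its log2 odds of -2.17 was -3.06 without differentiation 1 and -1.47 without differentiation 2. Its pairs with Rn7s2 and AC157822.1 carried nearly the same counts, 190, 239, 230 and 300 against 190, 239, 230 and 298 and are uncertain as separate partners. Ctnna2, a neuronal catenin, had 32.5% and 34.0%, then 20.05% and 23.7%, and Nav2, a large cytoskeletal gene, had 50.4% and 53.1%, then 41.1% and 38.6%. With the TMM scaling of each kind of contact, edgeR called Luc7l, Ctnna2 and Nav2 lower (adjusted p 0.00165, 0.0242 and 0.0499; background 0.0844%) and none higher. That scaling takes the common shift of about 0.39 off the log2 odds, so it enlarges falls and shrinks rises. In Ctnna2 and Nav2 both counts fell, with log2 changes of -2.61 and -2.26 within and of -1.76 and -1.57 between.

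**Figure D5:**
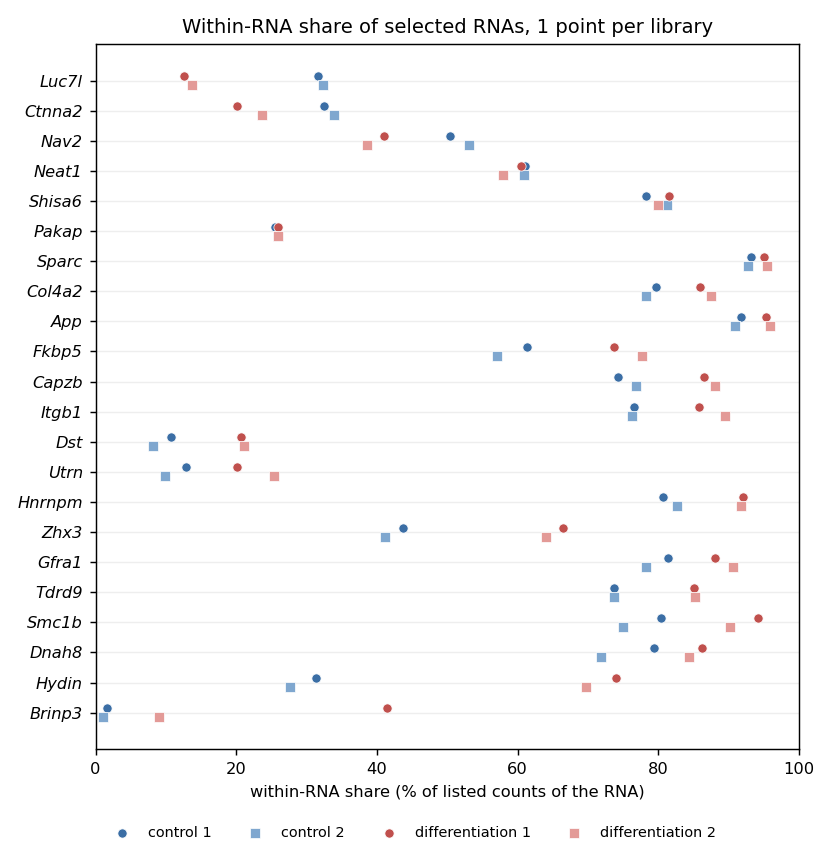
Within-RNA share (x axis, %) of 22 RNAs (y axis), with 1 point for each library, circles for replicate 1 and squares for replicate 2. Luc7l, Ctnna2 and Nav2 lie lower in both differentiation libraries, Neat1, Shisa6 and Pakap lie at about the same share in all, and most others lie higher in differentiation; Brinp3 spreads from 9.09% to 41.5% between the differentiation libraries.

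Of 33 genes known for roles in self-renewal 8 were members, 4 with overlapping shares and lower counts of both kinds and 4 with a higher share. Within counts fell in 5 (background 6.65%) and rose in 2 (10.4%), and between totals fell in 5 (6.05%). Shares were higher without overlap in 4 and lower in 0, beside 37.4% and 9.57% over all RNAs. Shisa6, a marker of undifferentiated spermatogonia, had 78.3%, 81.3%, 81.5% and 80.0% in control 1, control 2, differentiation 1 and differentiation 2, with a within count down to 152.4 ± 31.5 from 691 ± 96.0 CPM (SD, n = 2; log2 change -2.19, edgeR adjusted p 1.03e-04) and a between change of -2.28. Foxo1, Zbtb38 and Glis3, transcription factors of the stem cell state, had log2 odds of 0.10, -0.06 and -0.11, and both of their counts fell. Gfra1, the GDNF co-receptor, had 81.4% and 78.2% in the controls and 88.1% and 90.6% in differentiation (log2 odds 1.14 ± 0.32 SE, edgeR adjusted p 0.214). Its within count fell by 0.96 and its between total fell by 2.10 on the log2 scale, and its 3 largest pairs were with Gm42418, Gm26917 and Slc9a9. Taf4b and Itgb1 were the 2 whose within count rose. The summed markers of undifferentiated spermatogonia, which include Shisa6 and Gfra1, moved the same way as these counts, as given above. Their part in the result was not tested.

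Of 31 genes of meiotic prophase 8 were members, 5 with a within count that rose (background 10.4%) and 1 with a between total that rose (3.33%). Shares were higher without overlap in 2 and lower in 0, beside 37.4% and 9.57% over all RNAs. Smc1b, the meiotic cohesin subunit, had 80.4% and 75% in the controls and 94.2% and 90.2% in differentiation, with a within count up by 2.51 (edgeR adjusted p 1.67e-04) and a between total of 8.60 ± 1.38 and 15.2 ± 9.20 CPM. Stag3, also of the meiotic cohesin, had 87.0% and 84.0%, then 90.6% and 91.2%. Dmc1, the meiotic recombinase, had 81.3% and 91.4%, then 93.2% and 89.6%, and its groups overlapped. Sycp1, of the synaptonemal complex, overlapped too, at 52.1% and 31.7% against 47.5% and 52.5%; its within count rose by 3.14 and its between total by 2.71.

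Of 4 members on the list of germ cell identity and the piRNA pathway, Tdrd9 and Mov10l1 rose in both kinds of counts. Tdrd9, a helicase of transposon silencing, had 73.7% in both controls and 85.1% and 85.2% in differentiation, from 42, 42, 120 and 254 within counts (log2 odds 1.04 ± 0.35 SE, edgeR adjusted p 0.234). Among 10 axoneme and cilia genes, within counts rose in 4 of 9 tested (background 10.4%), the between total rose in 1 (3.33%), and shares were higher without overlap in 4 of 10, near the 37.4% over all RNAs. Dnah8, a sperm tail dynein, had 79.4% and 71.9%, then 86.2% and 84.4%; its within count rose by 3.29 and its between total by 2.39. Hydin, a protein of the central pair of cilia, had 31.4% and 27.6%, then 74.0% and 69.8%, from 16, 8, 57 and 60 within counts. Its between total was not called (log2 change 0.05), and 63.7% of it was the pair with Tra2a.

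The 25 members annotated as lncRNA had median shares of 53.5%, 51.9%, 54.2% and 41.8% in control 1, control 2, differentiation 1 and differentiation 2, with 2 higher and 9 lower without overlap and a median log2 odds of -0.21. The 2647 protein-coding members had 66.8%, 66.3%, 70.8% and 72.6%, with 1127 higher and 227 lower and a median of 0.37. Over all RNAs with both kinds of contact, 37.4% were higher and 9.57% lower without overlap. The difference between these classes was not tested. Dleu2 had 54.5% and 53.5% in the controls and 39.02% and 24.6% in differentiation, from 48, 69, 16 and 14 within counts. Kcnq1ot1, which silences an imprinted domain, had 70.7% and 67.0%, then 75.9% and 68.9%, and Meg3, also imprinted, had 82.4% and 81.9%, then 74.2% and 90.9%. The within count of Meg3 fell by 1.61 on the log2 scale and its between total fell by 1.69.

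Of the 9 mitochondrially encoded members, 7 had a higher share without overlap and 0 a lower one (37.4% and 9.57% over all RNAs), and within counts rose in 5 of 8 tested (background 10.4%). The median share of these RNAs stood at 23.0% and 31.5% in control against 42.1% and 35.4% in differentiation. Their between totals had a median log2 change of 0.26. mt-Nd5 had 43.1% and 41.6%, then 53.6% and 60.2%, mt-Nd1 had 43.0% and 34.9%, then 52.6% and 57.7%, and mt-Co1 had 52.2% and 48.5%, then 59.4% and 56.9%. The first 2 encode subunits of respiratory complex I and the third a subunit of cytochrome oxidase.

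The other lists are given as counts of shares without overlap, to be read beside 37.4% higher and 9.57% lower over all RNAs and 42.1% and 8.97% over all members; differences between lists were not tested. Chromatin regulators had 24 of 42 higher and 2 lower without overlap, with Kmt2d, a histone H3 methyltransferase, at 37.7% and 36.9% in the controls and 48.0% and 47.9% in differentiation. Extracellular matrix genes had 14 of 24 higher and 3 lower, and between totals that fell in 7 of 24 (background 6.05%). Translation factors had 6 of 9 higher and 1 lower, and within counts that rose in 5 of 9 (background 10.4%), Eif5a among them with a log2 change of 0.86. Cytoskeletal genes had 6 of 8 higher and 0 lower. Splicing factors and RNA-binding proteins had 9 of 19 higher and 4 lower, zinc finger genes 14 of 32 and 3, and solute carriers 13 of 38 and 6. Synaptic adhesion and channel genes had 8 of 35 higher and 5 lower, with Auts2 at 62.0% and 62.8%, then 57.0% and 56.5%. Of 4 ribosomal protein genes none separated the groups. Rpl13a had 7.67%, 6.49%, 9.08% and 7.04% in control 1, control 2, differentiation 1 and differentiation 2. In the same order, its pairs with Vmp1 and Gm11478 carried nearly the same counts, 586, 698, 544 and 1156 against 583, 698, 543 and 1156. They are uncertain as separate partners. Heat shock and chaperone genes had 2 of 7 higher and 0 lower.

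Markers of other cell types were few among the members. Of 3 Sertoli markers, 2 had a higher share without overlap and 1 a lower one. Wt1 had 58.0% and 59.8% in the controls and 67.9% and 65.8% in differentiation, and Kitl, the ligand of Kit, named after its values were seen, had 68.1% and 68.6%, then 57.9% and 59.3%. Of 4 fibroblast and feeder markers, 2 had a higher share without overlap and 0 a lower one; Col1a2, a chain of type I collagen, had 80.0% and 78.5%, then 81.0% and 86.5%, without overlap. Small structured RNAs, replication-dependent histones, immediate early genes, Leydig and peritubular markers, and immune and endothelial markers had 0 members.

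The share also varied with the size of the gene and the number of partners. In the shortest 25% of genes (up to 38.5 kb) the median share was 73.5% and 72.1% in the controls, and in the longest 25% (157 kb and more) it was 60.2% and 61.5%. Within counts fell in 154 of 665 of the longest genes and in 25 of 652 of the shortest (background 6.65%). Between totals fell in 198 of 669 and 33 of 671 (background 6.05%). The median log2 odds was 0.23 for the longest and 0.36 for the shortest. RNAs with 3 partners had 72.8% and 72.6% in the controls, and the 29 RNAs with more than 100 partners had 38.0% and 35.9%. Across RNAs, Spearman's rho of the mean share was -0.19 with the span of the gene and -0.22 with the number of partner rows, as descriptions. The number of partner rows is part of the rule and of the share itself.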

How the data were processed

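Pairs of RNAs were read from the count table that the authors deposited, with 1 column per library. Its values are raw counts per pair, and the aligner and genome are STAR and GRCm38 per the submitters' processing notes; how chimeric reads were called, assigned to RNAs and filtered is not given in the sources used here. No other column of sample values was left unused. Every between row was counted for both of its RNAs.

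The main test was edgeR 4.0.16 (R 4.3.3, quasi-likelihood) on within and between counts of each library, with library terms, a within term and its interaction with group, for RNAs with at least 10 counts of each kind; DESeq2 1.42.0 was an alternative. A second edgeR fit took within rows and between totals as features, scaled by TMM. p-values were adjusted over all features by Benjamini-Hochberg. Genes were named from the RefSeq table of GRCm38.p6 (2617 of 2744 by symbol, 66 by synonym, 61 unmatched). Named RNAs were those with most counts, with the highest and lowest shares, up to 3 from each gene list, and Zhx3; other RNAs named were chosen after their values were seen. The members and lists were chosen with earlier results of these data known. Both fits were tested on simulated data. The share fit recovered 20% of changes of 1 on the log2 scale and 51% of changes of 2. The fit of within rows and between totals recovered 17% and 73%. The lack of share calls in edgeR therefore does not show that shares were unchanged.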

Additional observations from a re-analysis of the deposited data

How the results depend on the processing

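With edgeR, 0 RNAs had a changed share (adjusted p under 0.05) under each alternative of filter, replicate block, robust dispersion, partner choice or row minimum. The main fit also gave 0 at an adjusted p under 0.1. Some alternatives came nearer to the threshold than the main fit. The smallest edgeR adjusted p was 0.0777 without pairs within 100 kb. With summed counts of at least 40, Brinp3 had 0.0536 and Zhx3 had 0.0628, and with robust dispersion they had 0.0679 and 0.0841. TMM scaling of each kind of contact gave 3 calls, all lower. It takes the common shift of about 0.39 off the log2 odds, which enlarges falls and shrinks rises. DESeq2 gave 23 calls, of which 21 were higher and 2 lower, and why it called more RNAs than edgeR was not tested. The median log2 odds of members reversed to -0.04428 with that TMM scaling, whose construction takes out the common shift, and 14 of 67 named RNAs then had the opposite sign. The difference of median shares between the groups, 5.31 percentage points, was 2.64 without Gm42418 and Gm26917, 0.521 without the 6 broad partners, 0.782 without the 9 partners with most rows, and 1.57 without the 6 and with pairs of at least 20 counts only; the last 3 were chosen after seeing the data. Leaving out 1 library moved it between 4.37 and 6.26.

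Leaving out 1 library moved the calls of within rows and between totals of members from 934 to between 301 (without control 2) and 1506 (without differentiation 1). More within counts ran from 91 to 579, fewer within from 113 to 366, higher between totals from 12 to 92 and lower between totals from 85 to 469, with the lowest always without control 2 and the highest without differentiation 1. The replicate block, where same-numbered libraries had deviations with r = 0.0067 and so share only a number, gave 386 and 317 within calls, 71 and 434 between calls, and 0 share calls. DESeq2 made 762 calls in all. Depth limits single shares to about 6.10 to 7.89 percentage points either way (medians of 95% Wilson intervals), and pairs at 1 count have no order.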
